A study of Homo sapiens with 4 samples.

Results

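The genes described here make, store and break down serotonin: TPH1, DDC, SLC18A1, SLC18A2, MAOA and MAOB. All probe sets of the array table that its platform annotation assigns to 1 of these 6 symbols were taken, which gave 14 of 54613 probe sets, with 3 for TPH1, 2 for DDC, 1 for SLC18A1, 2 for SLC18A2, 3 for MAOA and 3 for MAOB. They were measured in 2 human neuroendocrine tumour cell lines, NCI-H727 from a bronchial tumour and QGP1 from a pancreatic tumour. In each line 1 array held cells electroporated with siRNA against DAXX (DAXX-KD), a chaperone of histone H3.3, and 1 array held cells given a universal negative control siRNA (control), each at a final 50 nM, so that control cells were electroporated too. The labels name 2 DAXX siRNAs without saying whether they were pooled, and the description of all 4 samples speaks of QGP1 cells with high aldehyde dehydrogenase activity, so line and treatment were taken from the sample titles.

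TPH1 hydroxylates tryptophan and sets the rate of serotonin synthesis outside the brain. DDC, aromatic L-amino acid decarboxylase, turns the hydroxylated product into serotonin and also makes dopamine. The vesicular monoamine transporters SLC18A1 (VMAT1) and SLC18A2 (VMAT2) load serotonin into secretory vesicles in exchange for protons, and the mitochondrial enzymes MAOA and MAOB oxidise monoamines, MAOA with a preference for serotonin. Enterochromaffin cells of the gut hold most of the body's serotonin, and neuroendocrine tumours of gut and lung can secrete it.

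Values are log2 expression after RMA, in which 1 unit is a 2-fold difference, and the 4 arrays had medians of 5.31 to 5.36. A value under 4.85, the 40th percentile of the probe set means, is called dim. RMA compresses differences among dim values, so no linear fold is printed for a gene where a dim array enters. Counts past 2-fold and the summed linear signals of marker lists do include dim values. Of the 14 probe sets, 7 were at or above this level on all 4 arrays, 4 on the arrays of 1 line only and 3 on none. Among all 54613 probe sets, 28778 were at or above it on all 4 arrays. The probe set of DAXX with the higher mean read 6.14 in DAXX-KD and 7.35 in control NCI-H727, and 6.56 in DAXX-KD and 8.52 in control QGP1. The other, 216038_x_at, read 6.19 and 7.02 in DAXX-KD and control NCI-H727, and 6.03 and 8.18 in DAXX-KD and control QGP1. More DAXX signal was left in NCI-H727, 43.3% and 56.2% of control at these probe sets, than in QGP1, 25.7% and 22.7%. All 7 neuroendocrine markers analysed, CHGA and SYP among them, were at or above 4.85 on every array, as were 13342 of all 19775 genes. Each gene was read here by its probe set of highest mean. Of the 6 lung markers 2 passed for line in limma, both against the line names, where 32.2% of all genes passed. The lung transcription factor NKX2-1 read 3.23 and 3.35 in DAXX-KD and control NCI-H727, against 8.38 and 8.77 in DAXX-KD and control QGP1, and GRP, a peptide of pulmonary neuroendocrine cells, read 4.12 and 5.37 in NCI-H727, against 11.76 and 12.80 in QGP1. The other lung markers, CALCA, SFTPC, SFTPB and SCGB1A1, had coefficients between -0.30 and 0.20 that did not pass. Of the 5 islet factors, PAX6 and ISL1 went with the line names and were lower in NCI-H727 (limma coefficients -1.31 and -0.65, adjusted p = 0.00651 and 0.0322). MNX1, at -0.02, did not pass, PDX1 read between 5.23 and 5.54 on all arrays and NKX6-1 was dim on all. NKX2-2, listed below with the enterochromaffin factors and not in this list, was higher in NCI-H727 (3.85, adjusted p = 0.00174 in limma). Whether the titles name the lines correctly was not tested; the sign of every difference between lines below rests on them, and the knockdown differences within a line do not depend on which line it is.

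**Figure D1:**
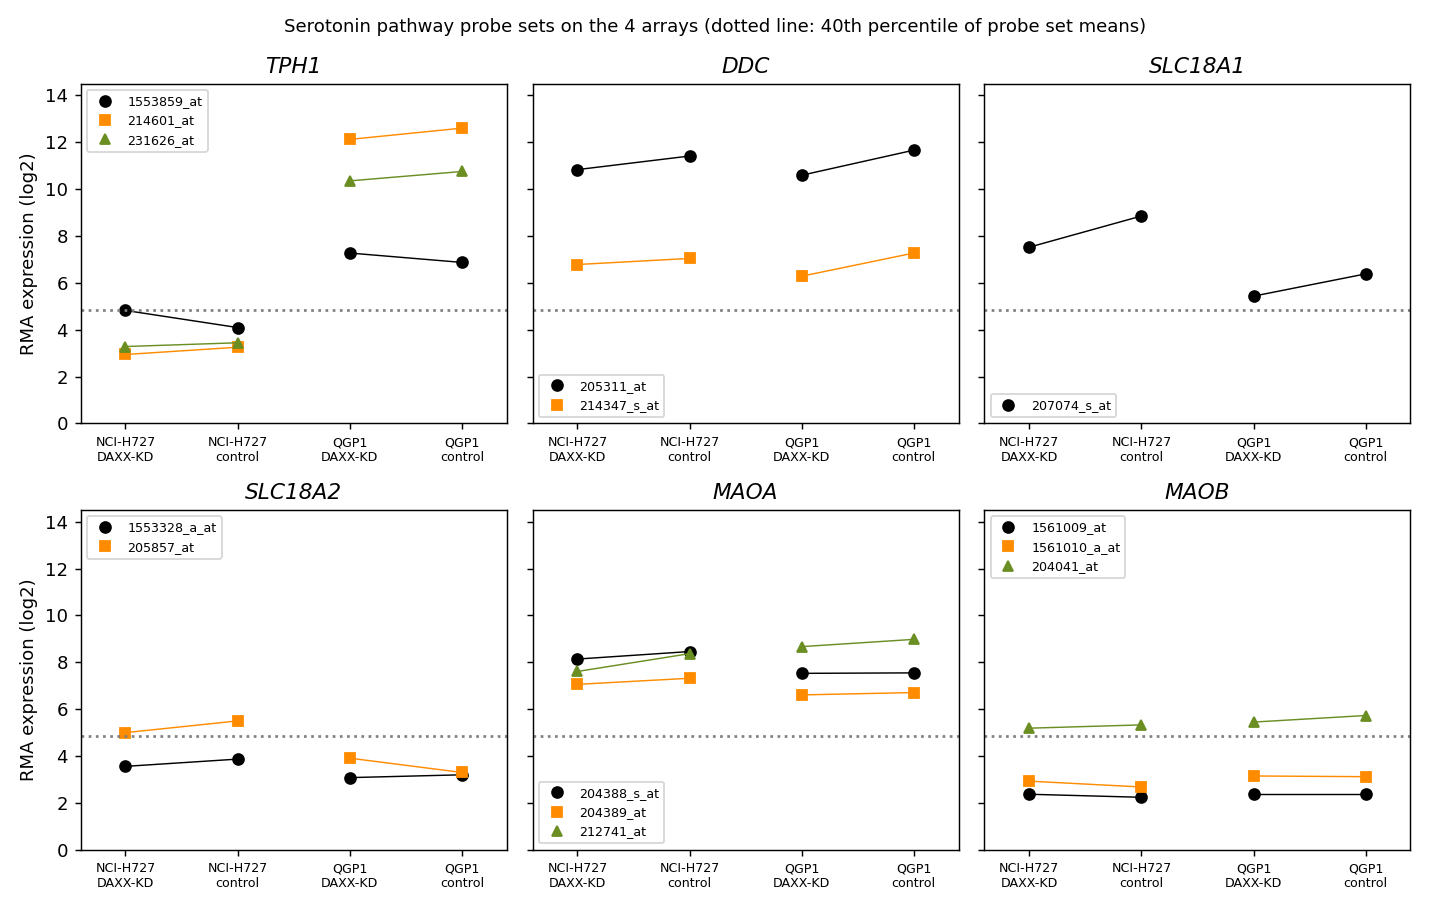
RMA expression (log2) of every probe set of the 6 genes on the 4 arrays, 1 point per array, with lines joining DAXX-KD and control of a line and a dotted line at 4.85. TPH1 lies far apart between the lines, DDC and SLC18A1 are lower in DAXX-KD of both lines, and the MAOA probe sets disagree on which line is higher.

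TPH1 had the line coefficient of largest size among the 14 probe sets. Its promoter window and those of DDC are printed because these 2 genes carry the synthesis steps, of which TPH1 differed most between the lines and DDC was lower in both knockdowns. The windows run from 250 bases before to 50 bases after a transcription start, are taken from RefSeq on GRCh38.p14 and are given 5′ to 3′ on the gene's strand; the table held 1 start for TPH1 and 2 for DDC, a gene with alternative promoters. TPH1 lies at chr11:18046220-18046519 on the minus strand, and the DDC windows lie at chr7:50565356-50565655 and chr7:50561022-50561321, also on the minus strand. Capitals mark ATTGG, the reverse complement of the CCAAT box.
TPH1: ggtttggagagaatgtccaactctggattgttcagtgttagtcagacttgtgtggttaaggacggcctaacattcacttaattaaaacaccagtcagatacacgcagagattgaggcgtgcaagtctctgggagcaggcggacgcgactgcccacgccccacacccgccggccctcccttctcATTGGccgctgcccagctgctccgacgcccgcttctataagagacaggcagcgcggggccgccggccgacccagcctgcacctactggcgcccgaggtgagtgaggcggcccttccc
DDC, upstream start: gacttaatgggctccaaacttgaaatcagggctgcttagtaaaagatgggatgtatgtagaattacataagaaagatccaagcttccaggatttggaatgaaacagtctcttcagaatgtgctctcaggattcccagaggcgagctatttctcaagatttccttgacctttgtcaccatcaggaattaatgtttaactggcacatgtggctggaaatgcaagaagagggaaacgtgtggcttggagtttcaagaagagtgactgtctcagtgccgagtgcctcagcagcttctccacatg
DDC, downstream start: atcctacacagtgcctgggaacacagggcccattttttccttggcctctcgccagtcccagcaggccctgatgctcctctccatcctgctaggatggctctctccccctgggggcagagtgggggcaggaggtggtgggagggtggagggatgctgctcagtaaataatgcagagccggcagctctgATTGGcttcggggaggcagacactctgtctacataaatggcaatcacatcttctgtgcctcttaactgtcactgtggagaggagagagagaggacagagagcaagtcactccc

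The windows of TPH1, DDC, SLC18A2, MAOA and MAOB were searched on both strands for CCAAT. No window of SLC18A1 was searched. The second motif searched was the GC box, GGGCGG, whose matches overlap one another in the windows of SLC18A2 and MAOB. The third was a TATA box, spelled TATAAA, present in 11.5% of all windows and in none of these; no match of 1 motif overlapped that of another. ATTGG began at base -67 of TPH1 and at base -63 of the downstream DDC start, counted from the transcription start, and a CCAAT box in either direction is present in 34.6% of all 35116 windows of the same length. The upstream DDC window held none of the 3 motifs. GC boxes, present in 45.0% of all windows, numbered 0 in the TPH1 and DDC windows, 4 in that of MAOA, 7 in that of MAOB and 5 in that of SLC18A2. These windows had a GC content of 61.0% for TPH1, 44.3% and 57.3% for DDC, 63.0% for MAOA, 72.0% for MAOB and 78.7% for SLC18A2. A match is a run of letters and was not tied to binding or to the array values.

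TPH1 was dim in NCI-H727 and gave a high signal in QGP1. Probe set 214601_at read 2.94 in DAXX-KD and 3.25 in control NCI-H727, against 12.12 in DAXX-KD and 12.60 in control QGP1. Probe set 231626_at read 3.28 and 3.44 in DAXX-KD and control NCI-H727, against 10.35 and 10.75 in DAXX-KD and control QGP1. For both, the NCI-H727 arrays lay under 4.85 and the QGP1 arrays far above it, with no overlap. The limma coefficient for line, NCI-H727 minus QGP1, was -9.26 (SE 0.13, adjusted p = 0.000223) for 214601_at and -7.19 (SE 0.14, adjusted p = 0.000223) for 231626_at. The third probe set, 1553859_at, read 4.82 and 4.09 in DAXX-KD and control NCI-H727, against 7.27 and 6.87 in DAXX-KD and control QGP1, with a coefficient of -2.61 (SE 0.15, adjusted p = 0.000984 in limma). All 3 probe sets thus put TPH1 lower in NCI-H727, by sizes that differ between them. Leaving out any 1 of the 4 arrays kept 214601_at between -9.50 and -9.02, past the threshold each time. In bulk RNA, fewer cells with the transcript and less of it per cell cannot be told apart.

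The knockdown difference of TPH1 was small beside this and its direction depended on the probe set. Probe set 214601_at differed by -0.48 between DAXX-KD and control in QGP1, a 1.39-fold lower signal, and 231626_at by -0.40, or 1.32-fold lower. Probe set 1553859_at differed by 0.40, or 1.32-fold higher. In NCI-H727 the same probe sets differed by -0.31, -0.16 and 0.73, all between dim values. The 2 probe sets with the high QGP1 signal were lower in both knockdowns and the third was higher in both. Over both lines limma gave differences of -0.40 (SE 0.13), -0.28 (SE 0.14) and 0.56 (SE 0.15), with an adjusted p of 0.979 for each.

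DDC stood above 4.85 on all 4 arrays, at both of its probe sets, and was lower in both DAXX-KD arrays. Probe set 205311_at read 10.83 in DAXX-KD and 11.41 in control NCI-H727, and 10.59 in DAXX-KD and 11.66 in control QGP1. Both DAXX-KD values lay under both control values. The difference of -0.59 in NCI-H727 left 66.6% of the control signal, and that of -1.07 in QGP1 left 47.6%. The second probe set, 214347_s_at, read 6.78 and 7.04 in DAXX-KD and control NCI-H727 and 6.28 and 7.27 in DAXX-KD and control QGP1, differences of -0.26 and -0.99. It gave the same direction in each line, and its DAXX-KD values also lay under both controls. Limma over both lines gave -0.83 (SE 0.17, lower in 2 of 2 lines) for 205311_at, an unadjusted p of 0.00589 and an adjusted p of 0.979 in the fit, so it did not pass. The coefficient for line was 0.00 (SE 0.17, adjusted p = 0.992 in limma) and 0.14 (SE 0.21, adjusted p = 0.706) for the probe sets, neither of which passed.

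SLC18A1 was higher in NCI-H727 than in QGP1 and lower in the DAXX-KD array of each. Its 1 probe set, 207074_s_at, whose suffix marks possible binding of more than 1 transcript, read 7.52 in DAXX-KD and 8.85 in control NCI-H727, against 5.43 in DAXX-KD and 6.38 in control QGP1. Each NCI-H727 value lay above each QGP1 value. The limma line coefficient was 2.28 (SE 0.16, adjusted p = 0.00151), a 4.85-fold higher signal in NCI-H727. With 1 array left out and no treatment term it lay between 1.61 and 2.94 and passed only without the DAXX-KD NCI-H727 array (adjusted p = 0.0377); it was 1.80 (0.183) without the DAXX-KD QGP1 array, 2.75 (0.0865) without the control QGP1 array and 1.61 (0.102) without the control NCI-H727 array. The knockdown difference was -1.33 in NCI-H727, 39.7% of the control signal, and -0.95 in QGP1, 51.8% of it. Over both lines limma gave -1.14 (SE 0.16, lower in 2 of 2 lines), with an unadjusted p of 0.0011, the lowest of the 14 probe sets, and an adjusted p of 0.979.

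SLC18A2 was at the edge of detection. Probe set 205857_at read 5.00 in DAXX-KD and 5.50 in control NCI-H727, against 3.91 in DAXX-KD and 3.30 in control QGP1, where it was dim. The line coefficient was 1.64 (SE 0.29, adjusted p = 0.0186 in limma). Without the control QGP1 array it was 1.33 (adjusted p = 0.071 in limma) and without the control NCI-H727 array 1.39 (adjusted p = 0.0665). The knockdown difference was -0.50 in NCI-H727 and, between dim values, 0.62 in QGP1. The other probe set, 1553328_a_at, read between 3.08 and 3.87 and was dim on all 4 arrays, with a line coefficient of 0.57 (SE 0.13, adjusted p = 0.0401 in limma). Both probe sets read higher in NCI-H727, as the SLC18A1 probe set did.

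MAOA was measured above 4.85 by 3 probe sets that disagreed on the line with more signal. Probe set 204388_s_at read 8.14 and 8.46 in DAXX-KD and control NCI-H727, against 7.53 and 7.55 in DAXX-KD and control QGP1, and 204389_at read 7.06 and 7.32, against 6.61 and 6.71. Probe set 212741_at read 7.61 and 8.37 in DAXX-KD and control NCI-H727, against 8.67 and 8.98 in DAXX-KD and control QGP1. The lines did not overlap in any of them. The limma line coefficients were 0.76 (SE 0.14, adjusted p = 0.0225), 0.53 (SE 0.13, adjusted p = 0.0478) and -0.84 (SE 0.17, adjusted p = 0.0253), so each passed the test while no direction can be given for the gene. Probe set 212741_at passed with 1 array left out only without the control NCI-H727 array, at -1.22 (adjusted p = 0.0325 in limma), and lay between -0.99 and -0.46 without 1 of the others. The mean of the 3 probe sets differed by 0.15 (adjusted p = 0.431 in limma).

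In the knockdown the 3 MAOA probe sets had 1 direction. In NCI-H727 the differences were -0.32, -0.26 and -0.76, and in QGP1 they were -0.02, -0.11 and -0.31. The difference was numerically larger in NCI-H727 at each probe set, which was not tested because each line had 1 array per condition. Limma over both lines gave -0.53 (SE 0.17) for 212741_at, with an unadjusted p of 0.0268 and an adjusted p of 0.979.

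MAOB read low throughout. Probe set 204041_at read 5.19 and 5.33 in DAXX-KD and control NCI-H727, against 5.45 and 5.73 in DAXX-KD and control QGP1, with a line coefficient of -0.33 (SE 0.13, adjusted p = 0.147 in limma). Its knockdown differences were -0.14 and -0.28. The other 2 probe sets, 1561009_at and 1561010_a_at, lay between 2.24 and 3.15 on all arrays and were dim. None of the 3 passed for line.

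**Figure D2:**
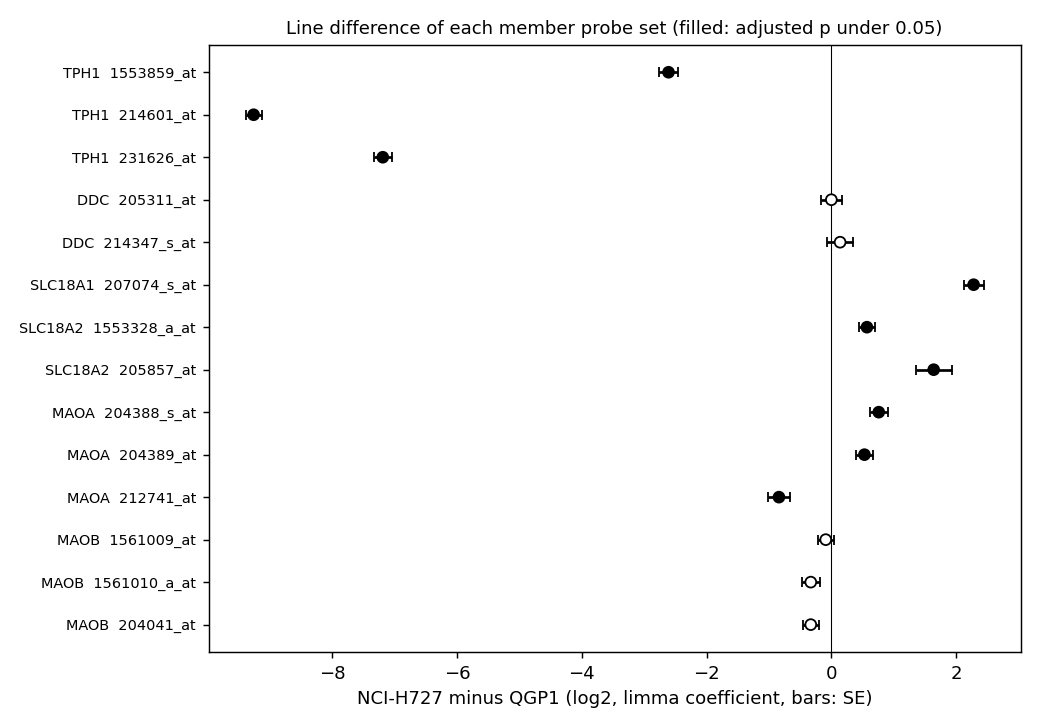
Limma coefficient for cell line, NCI-H727 minus QGP1 (log2), for each of the 14 probe sets over all 4 arrays; bars are the SE and filled points have an adjusted p under 0.05. The TPH1 probe sets reach -9.26, SLC18A1 lies at 2.28, and the MAOA probe sets fall on both sides of 0.

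Between the lines, 9 of the 14 probe sets passed, 5 higher and 4 lower in NCI-H727, against 26.5% of all 54613 probe sets. The higher ones belonged to SLC18A1, SLC18A2 and MAOA and the lower ones to TPH1 and MAOA. With 1 array left out and no treatment term, fewer than 9 of the 14 passed each time. Such a fit leaves 1 line with 1 array, and the share of all probe sets that passed in it is not given. A loss of calls at the members therefore cannot be told from a loss over all probe sets. The fit of all 4 arrays has 1 residual degree of freedom, the 2 arrays of a line differ in treatment, and nothing in the labels says that arrays came from separate cultures. The p-values rest on how far the knockdown difference departs between the 2 lines and on a prior taken from all probe sets. They do not measure the spread between repeated cultures.

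Of the 14 probe sets, 10 read lower in DAXX-KD of both lines, against 23.1% of all probe sets, 2 were higher in both, 1 had opposite signs and 1 differed by 0.13 in NCI-H727 and 0.00 in QGP1. Counted after the values were seen, all 7 probe sets at or above 4.85 on every array, from DDC, SLC18A1, MAOA and MAOB, were lower in both lines, against 24.5% of such probe sets in the table. Probe sets of 1 gene share its transcripts and are not separate measurements. The median difference of the 14 was -0.28 in NCI-H727 and -0.20 in QGP1, against 0.02 and 0.00 over all probe sets. A 2-fold lower signal was reached by 1 probe set in NCI-H727, that of SLC18A1, against 1.05% of all probe sets, and by 1 in QGP1, that of DDC, against 0.161%. None was 2-fold higher, against 0.11% of all probe sets in NCI-H727 and 0.145% in QGP1.

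**Figure D3:**
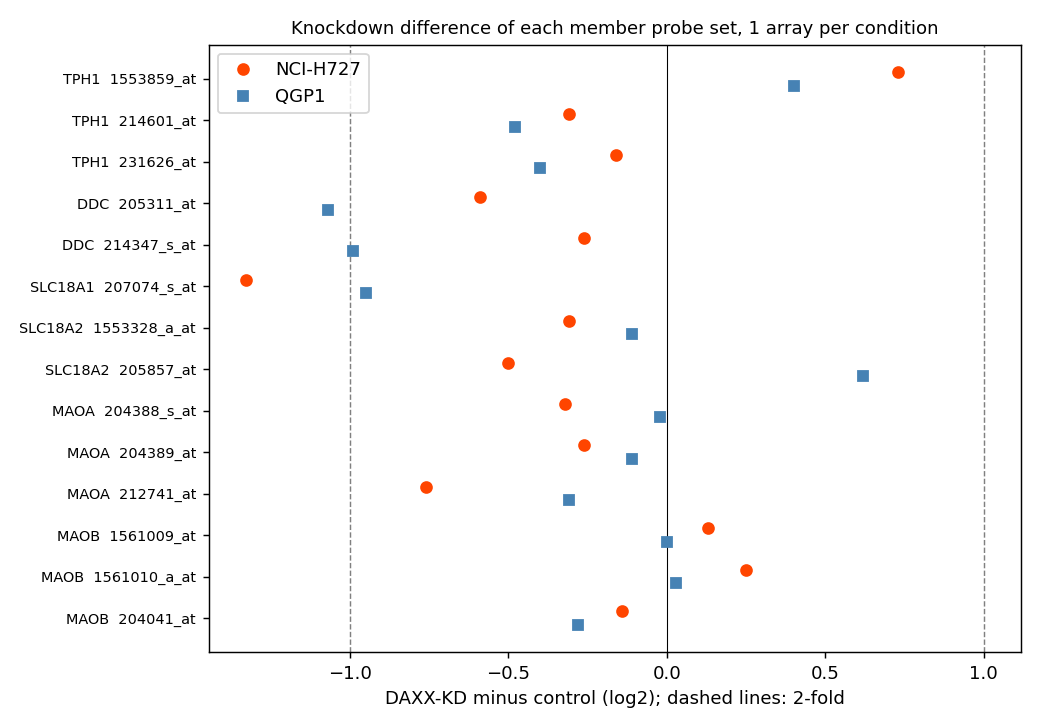
DAXX-KD minus control (log2) of each probe set, with NCI-H727 as circles and QGP1 as squares, 1 array per condition, and dashed lines at 2-fold. SLC18A1 in NCI-H727 (-1.33) and DDC in QGP1 (-1.07) lie past the line, and SLC18A2 at 205857_at has opposite signs.

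The joint limma fit of the knockdown over both lines called 0 of the 14 probe sets and 0% of all probe sets after adjustment at 0.05. Before adjustment, 6 of the 14 had p under 0.05, against 4.86% of all probe sets. These 6 were both DDC probe sets, SLC18A1, MAOA at 212741_at and TPH1 at 214601_at, all lower, and TPH1 at 1553859_at, higher. Within a line there was no replicate. Among probe sets with a mean of at least 4.85, the SD between those assigned to the same gene was 0.28 in NCI-H727 and 0.20 in QGP1. The central 95% of all probe sets lay between -0.73 and 0.51 in NCI-H727 and between -0.50 and 0.50 in QGP1. In NCI-H727 the differences of SLC18A1 and MAOA at 212741_at lay under that range and that of TPH1 at 1553859_at, between dim values, above it; in QGP1 those of both DDC probe sets and SLC18A1 lay under it and that of SLC18A2 at 205857_at, between dim values, above it.

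Genes around the pathway were read by 1 probe set each, that of highest mean, and 32.2% of all genes so read passed for line in limma. Of all 19775 genes so read, 13342 were at or above 4.85 on all 4 arrays. The second tryptophan hydroxylase TPH2, used by neurons, was dim on all 4 arrays, at 2.79 and 3.26 in DAXX-KD and control NCI-H727 and 2.96 and 3.71 in DAXX-KD and control QGP1. Tetrahydrobiopterin is the cofactor of the hydroxylases, and all 7 of its genes analysed were above 4.85 on every array of both lines, also in NCI-H727, where TPH1 was dim. GCH1, its first enzyme, read 9.90 and 10.17 in DAXX-KD and control NCI-H727, against 10.28 and 10.50 in DAXX-KD and control QGP1. Of the 7, PCBD2 and the GCH1 feedback regulator GCHFR were higher in NCI-H727 (0.77 and 0.51, adjusted p = 0.0149 and 0.0458 in limma), though the other 2 PCBD2 probe sets, at -0.90 and 0.06, did not pass.

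Tryptophan uptake and its competing breakdown differed between the lines at several genes. Of 8 amino acid transporters, 1 was higher and 4 lower in NCI-H727, and SLC6A14 among the lower ones was dim on all arrays. SLC7A8 was lower by a coefficient of -2.62 (SE 0.18, adjusted p = 0.00158 in limma) and SLC16A10, an aromatic amino acid transporter, by -2.48 (SE 0.13, adjusted p = 0.000767), where the control NCI-H727 array was dim. Of 12 kynurenine pathway genes 4 were higher and 2 lower in NCI-H727, and ACMSD among the higher ones was dim on all arrays. TDO2, which opens tryptophan's ring in the kynurenine route, read 3.12 and 3.26 in DAXX-KD and control NCI-H727, against 7.57 and 7.57 in QGP1 (-4.38, SE 0.13, adjusted p = 0.000266 in limma), so that the QGP1 arrays carried signal for both TDO2 and TPH1; its other probe set was dim on all arrays. QPRT, a later enzyme of that route, was higher in NCI-H727 by 3.89 (SE 0.15, adjusted p = 0.000424).

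Serotonin receptors were mostly at low signal, with 4 of 15 at or above 4.85 on all arrays, against 13342 of all 19775 genes. Of the 15, 2 were higher in NCI-H727. HTR2A, a Gq-coupled receptor, read 9.00 in DAXX-KD and 7.98 in control NCI-H727, against 3.96 in DAXX-KD and 4.36 in control QGP1, where it was dim. Its line coefficient was 4.33 (SE 0.36, adjusted p = 0.00241 in limma). Its knockdown difference of 1.02 in NCI-H727 made it the 1 receptor past 2-fold, where 1.19% of all genes were past 2-fold either way, and its other 2 probe sets differed by 0.57 and 1.07. HTR3A, a subunit of the serotonin-gated channel, had a line coefficient of 1.77 (SE 0.22, adjusted p = 0.00699), and its second probe set one of 0.86 that did not pass. The plasma membrane serotonin transporter SLC6A4 was dim on all arrays, at 4.45 and 4.79 in DAXX-KD and control NCI-H727 and 4.13 and 3.88 in DAXX-KD and control QGP1.

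Of 4 aldehyde-handling genes that act after monoamine oxidase, ALDH2 was higher in NCI-H727 by 3.22 (SE 0.14, adjusted p = 0.000547 in limma), at 9.71 and 9.64 in DAXX-KD and control NCI-H727 against 6.36 and 6.55 in DAXX-KD and control QGP1. ALDH3A2 was lower in NCI-H727 by -1.27 (adjusted p = 0.00745). HNMT, the histamine methyltransferase, was higher in NCI-H727 by 1.26 (adjusted p = 0.00673 in limma) at its probe set of highest mean. Its other probe sets lay between -1.43 and 2.77, and both of these ends passed (adjusted p = 0.0318 and 0.000687 in limma). No direction can thus be given for the gene. Of the genes that supply pyridoxal phosphate, the cofactor of DDC, ALPL was analysed and was dim on all arrays. None of the 5 catecholamine genes and none of the 3 plasma membrane transporters analysed passed for line. TH, which opens the dopamine route, was dim on all 4 arrays, and DBH read between 4.88 and 5.33.

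Subunits of the vesicular proton pump, whose gradient drives SLC18A1 and SLC18A2, stood at or above 4.85 on all 4 arrays in 17 of 19 cases. Over all 19775 genes this held for 13342. ATP6V1G2 was dim on both NCI-H727 arrays and ATP6V1C2 in control NCI-H727. Of the 19, 2 were higher and 5 lower in NCI-H727, with the largest coefficients at ATP6V0B (-1.29, SE 0.13, adjusted p = 0.00386 in limma) and ATP6V1G1 (-1.19, SE 0.14, adjusted p = 0.00647). Their median knockdown differences were 0.00 in NCI-H727 and 0.07 in QGP1, and none was past 2-fold.

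Of 10 transcription factors of enterochromaffin and serotonergic cells analysed, 2 were higher and 1 lower in NCI-H727. NKX2-2 read 9.25 and 9.17 in DAXX-KD and control NCI-H727, against 5.93 and 4.80 in DAXX-KD and control QGP1 (3.85, SE 0.28, adjusted p = 0.00174 in limma), and was the 1 factor past 2-fold in a knockdown, with a difference of 1.13 in QGP1 from a dim control value, where 0.445% of all genes were past 2-fold either way. GATA2 was lower in NCI-H727 by -1.76 (SE 0.18, adjusted p = 0.00409), with its other probe sets at 0.11 and -0.40, neither of which passed. FEV, the factor of serotonergic neurons, was dim on all 4 arrays. Among 7 known regulators of the MAO promoters, KLF11 was lower in NCI-H727 by -2.32 (adjusted p = 0.00115) and FOXO1 higher by 1.76 (adjusted p = 0.00258); in all 1 was higher and 3 lower.

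**Figure D4:**
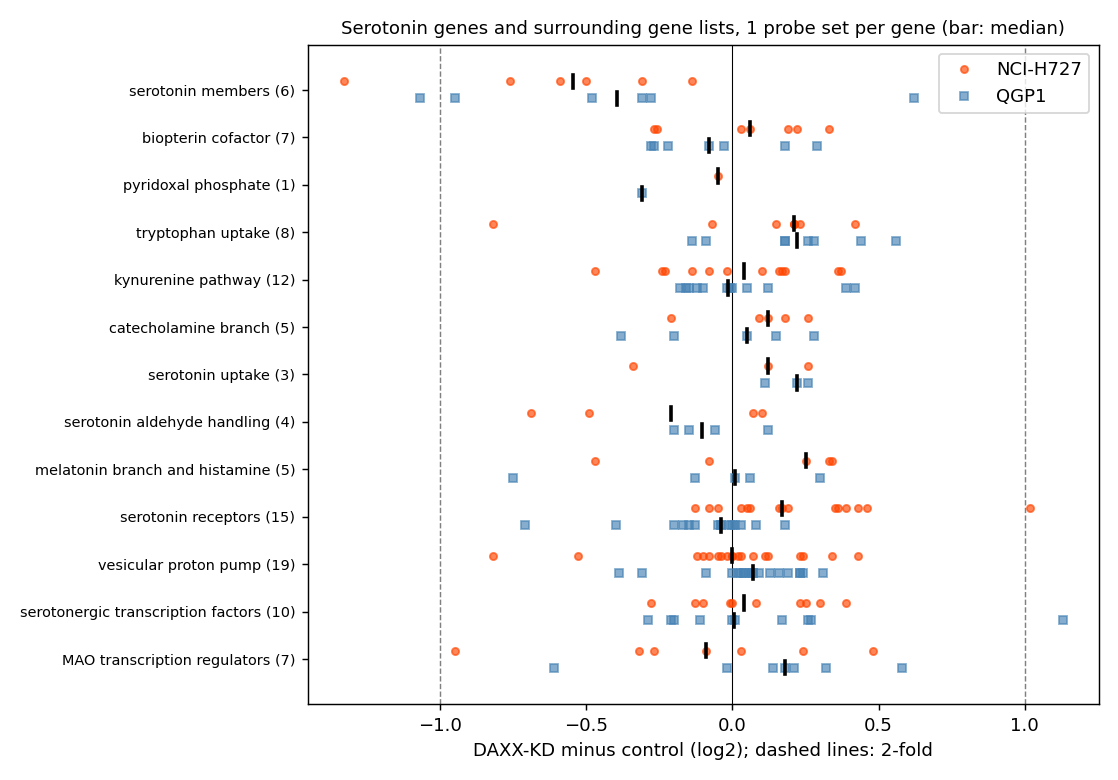
DAXX-KD minus control (log2) of each gene in the surrounding lists, with NCI-H727 as circles above QGP1 as squares, the number of genes in brackets, a bar at each median and dashed lines at 2-fold. The 6 serotonin genes have medians of -0.54 and -0.39, and single genes past 2-fold are SLC18A1, DDC, HTR2A and NKX2-2.

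Read by 1 probe set each, the 6 serotonin genes had median knockdown differences of -0.54 in NCI-H727 and -0.39 in QGP1, against 0.03 and 0.00 over all 19775 genes. The surrounding lists with 5 or more genes had medians between -0.09 and 0.25 in NCI-H727 and between -0.08 and 0.22 in QGP1, marker lists not counted. Among the smaller lists, the 4 aldehyde-handling genes had medians of -0.21 in NCI-H727 and -0.11 in QGP1. ALPL, dim on all arrays, differed by -0.05 and -0.31, and the 3 plasma membrane transporters had medians of 0.12 and 0.22. The 6 lung markers had medians of -0.10 and -0.24, in the same direction as the serotonin genes, and a summed linear signal of 11600 and 12100 in DAXX-KD and control NCI-H727 and 17700 and 21300 in DAXX-KD and control QGP1. Among them GRP differed by -1.24 in NCI-H727, to a dim value, and by -1.04 in QGP1. The part of this in the serotonin results was not tested. Limma over both lines called 0 genes of any list. Markers of other cell types were read beside these values. The summed linear signal of 9 fibroblast and endothelial markers was 458 and 417 in DAXX-KD and control NCI-H727 and 437 and 394 in DAXX-KD and control QGP1, with 5 of 9 at or above 4.85 on each array and PECAM1 higher by 1.06 in DAXX-KD QGP1. That of 6 leukocyte and mast cell markers was 201 and 169 in DAXX-KD and control NCI-H727 and 530 and 383 in DAXX-KD and control QGP1, with 3 or 4 of 6 at or above 4.85 and KIT higher by 0.67 and 0.69 in the knockdowns. KIT read 5.10 and 4.43 in DAXX-KD and control NCI-H727, against 8.62 and 7.93 in DAXX-KD and control QGP1. Its line coefficient was -3.51 (adjusted p = 0.000361 in limma), and the other 5 of these markers did not pass for line. TPSAB1, a mast cell tryptase, read between 5.80 and 5.90 and the T cell marker CD3E between 4.92 and 5.36, while PTPRC and CPA3 were dim on all 4 arrays. The part of these markers in the serotonin results was not tested.

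The probe sets most like each member over the 4 arrays were found by the root mean square deviation of centred values among 27215 probe sets with 1 symbol and a mean of at least 4.85. With 4 arrays this describes a profile and nothing more. Nearest to TPH1 were IL13RA2 (0.32), the prostaglandin receptor PTGER4 (0.60) and HS3ST3B1 (0.68), against a span of 9.66 over the arrays. Nearest to SLC18A1 were IGFBP5, at 2 of its probe sets (0.19 and 0.20), and PNMA6A (0.21). IGFBP5 at 203424_s_at read 9.65 and 11.05 in DAXX-KD and control NCI-H727, against 7.16 and 8.57 in DAXX-KD and control QGP1. DDC had UNKL (0.06), C19orf12 (0.12) and MAF (0.14) nearest, with 19 probe sets within 0.2. Nearest to SLC18A2 were L3MBTL4 (0.07), ANKRD18A (0.09) and C12orf42 (0.09), with 92 within 0.2. MAOA at 212741_at had SEC16A (0.02), PERP (0.03) and H2BC5 (0.03), with 654 within 0.2, and MAOB spanned 0.54 and was not matched.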

How the data were processed

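Total RNA of 4 cell line samples was measured on 1 Affymetrix array each. The authors deposited log2 expression values made with RMA, for which the submitters' processing notes give affy 1.40.0 and R 3.0.3. RMA corrects background, quantile-normalizes arrays and summarises probes; a shift shared by most genes is removed. Platform annotation gave 41091 probe sets 1 symbol, 1801 several and 11721 none; 41037 of the first were found by Entrez identifier in RefSeq (GRCh38.p14), with 0 symbols updated. Probe sets with several symbols or none were fitted but not named.

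A limma fit (limma 3.58.1, R 4.3.3) of cell line and treatment used all 54613 probe sets and 4 arrays, with no filter, 1 residual and 3.54 prior degrees of freedom, two-sided tests and Benjamini-Hochberg adjustment at 0.05. It was tested on simulated data. Differences within a line had no replicate and no test. The number of arrays limits the precision. Members and gene lists were chosen with earlier results of these data known. Named besides the members and marker genes are list genes past 2-fold in a knockdown with an array at or above 4.85, the 2 with the largest line coefficients that passed, and the 3 nearest profiles; TPH2, GCH1, SLC6A4, TH, DBH, FEV, ALPL, ATP6V1G2 and ATP6V1C2 were named after their values were seen. Some list genes were not analysed here. Alternatives changed the prior, filter, probe set rule, covariates, arrays and normalization.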

Additional observations from a re-analysis of the deposited data

Results flagged for a closer look

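SLC18A2 at 205857_at differed between DAXX-KD and control by -0.50 in NCI-H727 and by 0.62 in QGP1, opposite directions that were both larger than the SD between probe sets of 1 gene in that line. That SD was taken over probe sets with a mean of at least 4.85, a set that leaves out 205857_at. The difference between the lines was not tested, since each line had 1 array per condition, and the QGP1 values were dim.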

How the results depend on the processing

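Knockdown differences of the 6 genes, each by its probe set of highest mean, kept their direction and their side of 2-fold under all 17 alternative values in NCI-H727 and all 17 in QGP1. One alternative only dropped genes that were dim on both arrays of the line and left every other value unchanged. Its values are counted among the 17 but could not have changed direction or side. The count past 2-fold in QGP1 was 2 in place of 1 after a second quantile normalization and 2 after centring on a running median over intensity, since the second DDC probe set lies next to the threshold. Over both lines 34 of 35 alternatives kept direction and side, and SLC18A2 turned to -0.08 with the mean of its probe sets. Changing the prior, the filter or the covariates, or taking 1 probe set per gene, leaves the coefficient itself unchanged. Only averaged probe sets and the second quantile normalization could therefore turn its direction. No alternative called a member in the knockdown, and adjusted p in limma for SLC18A1 ran from 0.345 to 1. Counts of members that passed for line were 4 of 6 with 1 probe set per gene and 3 of 6 with averaged probe sets, where fewer units are tested, and 3 to 7 of 14 with 1 array left out. Of 59 line values 46 kept direction and side, and 9 no longer passed, for SLC18A1, SLC18A2 and MAOA. For line, direction could turn only with averaged probe sets, the second quantile normalization or 1 array left out. The mean of probe sets turned DDC to 0.07 and MAOA to 0.15, and with 1 array left out DDC ranged from -0.54 to 0.53. DDC was 0.53 without the control QGP1 array and 0.29 without the DAXX-KD NCI-H727 array. Fits with 3 arrays had no treatment term, and the cause of the lost calls was not tested. Dim values limit TPH1 in NCI-H727, SLC18A2 and MAOB. The knockdown fit compares DAXX-KD with control within each line, with cell line as the block, and without that block it also called 0 of the 14.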
